A study of Bos taurus with 12 samples.

Results

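The genes of the proteasome were examined in expanded bovine blastocysts of known sex. They were the entries of the gene count table whose symbol begins with PSMA, PSMB, PSMC, PSMD, PSME, PSMF or PSMG followed by a digit, which were 50 of 32637 genes. Of these, 48 encode subunits, activators, a regulator or assembly chaperones, and PSMC3IP and PSME3IP1 share the letters without being subunits and are given apart. In all, 49 genes passed the filter on low counts and were tested. The exception was the thymic subunit PSMB11, with at most 1 count in any library.

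The proteasome degrades proteins that carry ubiquitin. Its core particle is a barrel in which outer rings of alpha subunits (PSMA) gate the entrance and inner rings of beta subunits (PSMB) hold the catalytic sites. A regulatory particle caps the barrel, with a base of ATPases (PSMC) that unfold substrates and a lid of PSMD subunits that removes their ubiquitin. Activators of the PSME family can cap the core in place of the regulatory particle, and dedicated chaperones assemble the particles. In the early embryo, proteasomes take part in clearing the proteins that the egg supplied.

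The study asked which genes differ between female and male embryos. The embryos of Bos taurus cattle were produced in vitro and collected as expanded blastocysts on days 7 and 8. Each was cut in 2, 1 piece was sexed by PCR, and the other pieces of 2 embryos of the same sex were pooled as 1 replicate, giving 6 female and 5 male libraries of full-length cDNA. A library is thus a pool of both lineages of 2 embryos, the day of each is not given in the labels, and p-values measure the spread between such pools.

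The female libraries held 6664112 to 16162985 counts and the male ones 9942952 to 21392764. Levels are in CPM, which are counts relative to the library's total after scaling with TMM factors, and log2 fold changes are male over female, so that positive values are higher in males. A gene was called at a Benjamini-Hochberg adjusted p under 0.1 and a fold change over 1.5 in edgeR's quasi-likelihood test with the library number as a block. Summed markers of the trophectoderm (CDX2, GATA2, GATA3, KRT8 and KRT18) ranged from 3151 to 9674 CPM in females and reached 24228 CPM in Male replicate 5, against at most 8054 CPM in the other males. Most of this sum is keratin, with KRT8 at 20142 and KRT18 at 3836 CPM in Male replicate 5. That library was the highest of the 11 for CDX2, KRT8 and KRT18, while GATA2 and GATA3 were highest in Female replicate 1, with log2 fold changes of -0.22 and -0.27. For the inner cell mass (NANOG, SOX2 and POU5F1) the sums were 396 to 465 CPM in females and 448 to 818 CPM in males, with the highest sum in Male replicate 5, where POU5F1 alone was at 737 CPM. NANOG and SOX2 were not raised in Male replicate 5, at 77.3 and 3.68 CPM against female means of 83.1 and 3.74 CPM. Hypoblast markers (GATA4, GATA6, SOX17 and PDGFRA) summed to 196 to 551 CPM in females and 170 to 429 CPM in males. Cumulus markers reached 32.4 CPM in females and 29.5 CPM in males, with AMH and FOXL2 at 3 counts or fewer, and the leukocyte markers PTPRC, CD3E and CD14 summed to at most 2.18 CPM, with PTPRC at 0 in all libraries, CD3E at up to 4 counts and CD14 at up to 30. Their part in the results was not tested, and because Male replicate 5 stood apart, the main values are also given without it.

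Most proteasome genes had a slightly higher level in males, and 2 passed the thresholds. PSMB5, the chymotrypsin-like catalytic subunit, was called higher in males, and PSMD10, an X-linked assembly chaperone, was called higher in females. By background, 0.414% of the 12802 tested genes were called higher in males and 1.5% higher in females. Of the 49 genes tested, 43 had a fold change above 0, against 50.5% of all tested genes. At an unadjusted p under 0.05, edgeR placed 10 of the 49 higher in males, against 6.26% of all genes, and 3 higher in females, against 6.95%. Without PSMC3IP and PSME3IP1, 9 of 47 were higher in males at that level. In either direction, DESeq2 with a term for library number also called 2 of the 49, against 584 of the 12802 genes that passed the filter. With sex alone it called 5, or 4 of 47 without PSMC3IP and PSME3IP1, against 637 of the 12802. Over all genes with a p-value, which include genes below the filter, the shares were 2.75% and 3.12%. With no fold threshold, 2 of the 49 had an adjusted p under 0.1 in edgeR, against 2.07% of tested genes. In DESeq2 with sex alone it was 7, with PSMC3IP among them, against 3.55% of all genes with a p-value, again including genes below the filter. The median log2 fold change of the 49 genes was 0.20, against 0.01 over all tested genes and 0.02 over autosomal genes. Without Male replicate 5 it was also 0.20, with 43 of 49 above 0. Leaving out Male replicate 4 gave 0.16 and 37 of 49, and leaving out Female replicate 2 gave 0.21 and 40 of 49. With library totals in place of TMM factors the median of all genes moved to -0.10, that of the 49 genes to 0.09, and 33 lay above 0, against 38.9% of all tested genes, or 42 above the median of all genes. Relative to the female mean, the median log2 level of the 49 genes was 0.05, 0.34, 0.13, 0.34 and 0.21 in Male replicates 1 to 5. In the female libraries it ran from -0.07 to 0.11, so that Male replicate 1 lay within their range. Fewer cells of a type and less RNA per cell cannot be told apart in such pools.

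Summed over the 48 subunits, activators, regulator and chaperones, the share of all counts was 1.24 ± 0.0706% in females (SD, n = 6) and 1.32 ± 0.0931% in males (SD, n = 5), a description with no test. The ranges of this share overlapped, at 1.13% to 1.31% for females and 1.25% to 1.48% for males. On the TMM scale the same sum was 11926 ± 620 CPM in females and 13889 ± 1412 CPM in males (SD), with females between 11127 and 12683 CPM and males between 12160 and 15554 CPM, which also overlapped.

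**Figure D1:**
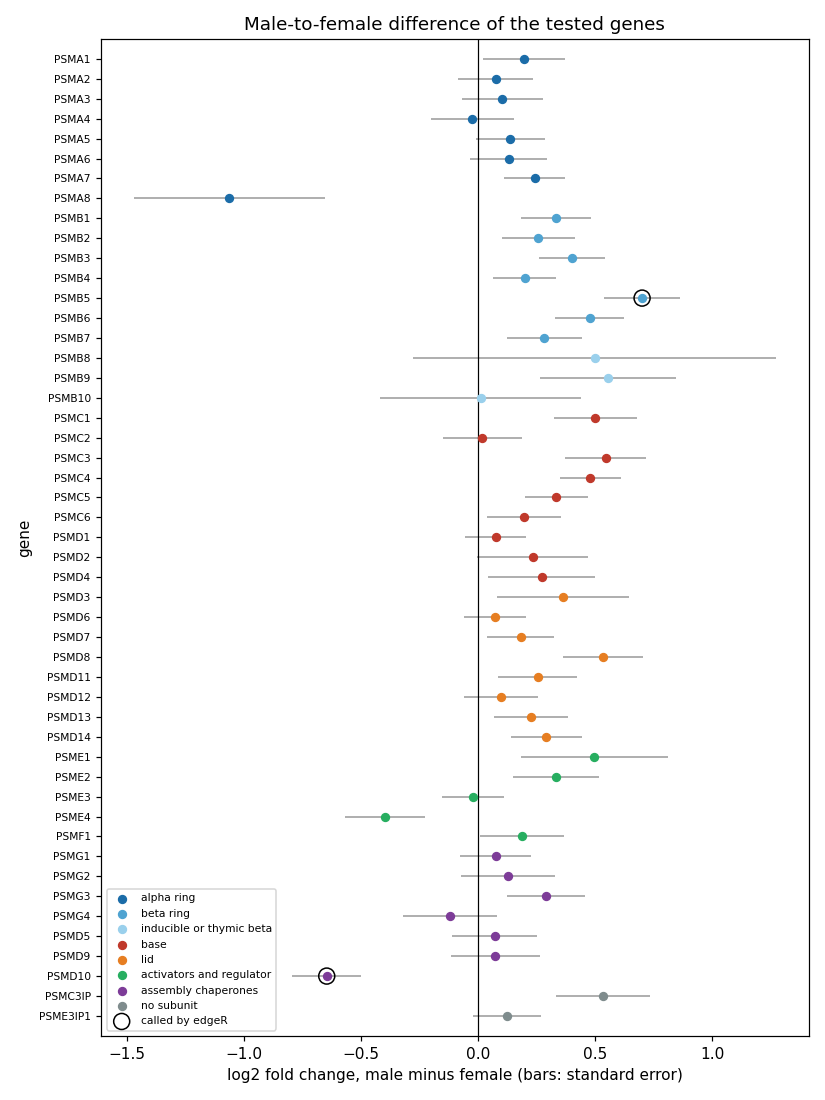
Log2 fold change, male minus female, of the 49 tested genes, grouped and coloured by class, with bars of 1 standard error from edgeR and circles around the 2 called genes. All 7 beta ring, 9 base and 8 lid genes lie to the right of 0, PSMB5 is at 0.70, and PSMD10 at -0.65 and PSMA8 at -1.06 lie to the left.

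In the alpha ring, none of the 8 genes was called by edgeR or by DESeq2. Their median log2 fold change was 0.12, with 6 of 8 above 0, and without Male replicate 5 it was 0.20, with 7 of 8 above 0. Without Male replicate 4, 3 of 8 lay above 0, and with library totals 4 of 8. At an unadjusted p under 0.05, edgeR placed 0 alpha genes higher in males and 1 higher in females. That 1 was PSMA8, the alpha subunit of the testis proteasome, with 7.0 ± 3.73 CPM in females (SD, n = 6) and 3.16 ± 1.19 CPM in males (SD, n = 5). Its female libraries ran from 3.21 through a median of 5.33 to 12.1 CPM, and Male replicates 1 to 5 had 2.48, 2.75, 4.18, 4.61 and 1.79 CPM, so that the groups overlapped. The log2 fold change of PSMA8 was -1.06 (SE 0.41, adjusted p = 0.281 in edgeR). PSMA7, the alpha subunit with the largest positive value of the ring, had a log2 fold change of 0.24 (SE 0.13, adjusted p = 0.471 in edgeR).

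In the beta ring, the fold changes shared a direction, but only 2 of 7 genes, PSMB5 and PSMB6, had no overlap between the sexes. Male replicate 5 lay below the female mean for PSMB1 and PSMB2, and Male replicate 1 for PSMB4. All 7 constitutive beta genes had a fold change above 0, under each alternative fit and scaling tried, with a median of 0.33 and a range from 0.20 to 0.70 on the log2 scale. Without Male replicate 5 the median was 0.42. At an unadjusted p under 0.05, 4 of 7 were higher in males, against 6.26% of all tested genes, and PSMB5 alone was called, by both edgeR and DESeq2. Within library numbers 1, 2 and 3, which hold 2, 2 and 2 female and 2, 1 and 2 male libraries, the median difference of mean log2 CPM was 0.33, 0.34 and 0.42, with 7 of 7 genes higher in males each time.

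The 3 constitutive catalytic subunits are PSMB5, PSMB6 and PSMB7, which cut after hydrophobic, acidic and basic residues. PSMB5 (chr10:21821507-21827026 in ARS-UCD2.0) had 396, 601, 446, 511 and 629 CPM in Male replicates 1 to 5. In females its level ran from 250.0 through a median of 314 to 358 CPM, so every male library lay above every female library. Its log2 fold change was 0.70 (SE 0.16), with an adjusted p of 0.0686 in edgeR's quasi-likelihood test, a 1.62-fold difference. The call depended on single libraries. It was kept in 4 of 11 fits that left out 1 library each, those without Female replicate 3 or Male replicates 1, 4 or 5, and lost without any of Female replicates 1, 2, 4, 5 and 6 or Male replicates 2 and 3. Across these fits the log2 fold change was 0.61 to 0.80 and the adjusted p 0.0525 to 0.191. Within library numbers 1 to 3 the difference was 0.55, 0.57 and 0.92. Its annotated span overlaps that of PSMB11, which had at most 1 count.

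PSMB6 (chr19:26564855-26567068) had 341, 497, 409, 554 and 411 CPM in Male replicates 1 to 5, and 282 to 340.0 CPM with a median of 317 CPM in females. The groups did not overlap, although Male replicate 1 lay just above the highest female. With a log2 fold change of 0.48 (SE 0.15), PSMB6 was not called (adjusted p = 0.177 in edgeR). PSMB7 overlapped between the sexes, with 325, 474, 375, 436 and 385 CPM in Male replicates 1 to 5 and 250.1 to 442 CPM, median 324 CPM, in females. PSMB7 had a log2 fold change of 0.28 (SE 0.16, adjusted p = 0.489 in edgeR). Among the structural beta subunits, PSMB3 had a log2 fold change of 0.40 (adjusted p = 0.239 in edgeR) and PSMB1 of 0.33 (adjusted p = 0.370 in edgeR). Both were above every female library in each of Male replicates 1 to 4 but not in Male replicate 5. For PSMB1 the margin was very narrow, with Male replicate 1 at 463.02 CPM and Female replicate 2 at 462.99 CPM.

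**Figure D2:**
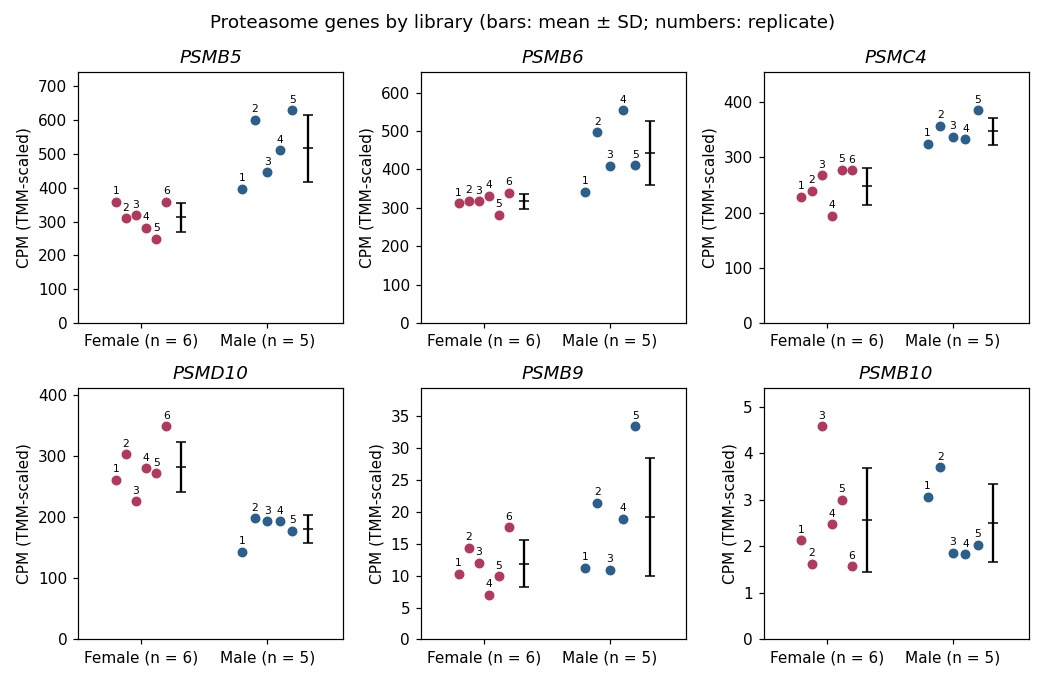
TMM-scaled CPM in each library of the 4 genes without overlap between female and male libraries (PSMB5, PSMB6, PSMC4 and PSMD10) and of the inducible subunits PSMB9 and PSMB10, with females in red and males in blue, replicate numbers beside the points, and bars of mean ± SD. Male libraries sit above all female ones for PSMB5, PSMB6 and PSMC4 and below them for PSMD10, and PSMB9 reaches 33.4 CPM in Male replicate 5.

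Every male library was above every female library in 3 of the 49 genes, PSMB5, PSMB6 and PSMC4, and every female library above every male library in 1, PSMD10. The background was 1.43% and 1.88% of all tested genes. With library totals in place of TMM factors, 1 male-higher gene kept this separation, PSMB5, and PSMD10 kept it too. Without Male replicate 5, the male-higher genes were PSMB1, PSMB3, PSMB5, PSMB6 and PSMC4, which were 5 of 49 against 2.56% of all tested genes. PSMB1 was among them only by the very narrow margin given above.

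The inducible catalytic subunits, which replace the constitutive ones in immunoproteasomes, were low and variable. PSMB8, the counterpart of PSMB5, had 15, 0, 21, 6 and 31 counts in Male replicates 1 to 5 and 2 to 17 counts in females, and a count of 0 allows up to 3 counts in that library. PSMB9, the counterpart of PSMB6, had 11.3, 21.5, 10.9, 18.9 and 33.4 CPM in Male replicates 1 to 5 and 7.01 to 17.6 CPM, median 11.1 CPM, in females. PSMB10, the counterpart of PSMB7, had 3.06, 3.70, 1.87, 1.83 and 2.04 CPM in males and 1.57 to 4.58 CPM, median 2.30 CPM, in females. All 3 overlapped between the sexes, and Male replicate 5 was the highest library for PSMB8 and PSMB9. Their log2 fold changes were 0.50 (SE 0.78), 0.55 (SE 0.29) and 0.01 (SE 0.43), with adjusted p of 0.837, 0.446 and 0.996 in edgeR, and the sign for PSMB10 changed with the fit. Without Male replicate 5, PSMB8 was at 0.09 and PSMB9 at 0.36. No inducible gene was called by edgeR or DESeq2, and 0 of 3 had an unadjusted p under 0.05.

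Counts of the inducible genes were set against those of the constitutive partner in the same library, as a ratio of counts without division by length. PSMB9 had 21.1 to 51.7 counts per 1000 counts of PSMB6 in females and 26.6 to 43.2 in Male replicates 1 to 4, and 81.3 in Male replicate 5. For PSMB10 there were 4.73 to 16.8 counts per 1000 of PSMB7 in females and 4.19 to 9.43 in males. The corresponding range for PSMB8 was 0.801 to 3.88 counts per 1000 of PSMB5 in females and 0 to 3.13 in males. These ratios overlapped between the sexes for each pair, with 1 male library beyond the female range for PSMB9.

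All 9 base genes, 6 ATPases and the scaffold and receptor subunits PSMD1, PSMD2 and PSMD4, had a fold change above 0, with a median of 0.27 on the log2 scale. Under library totals this held for 7 of 9, and under TMM factors from autosomal genes for 8 of 9. At an unadjusted p under 0.05, 4 of 9 were higher in males, all of them ATPases, against 6.26% of all tested genes. EdgeR called 0, as did DESeq2 with a term for library number, and DESeq2 with sex alone called 1, PSMC3. Summed over the base, the level was 2298 to 2628 CPM in females and 2661 to 3583 CPM in males, so the groups did not overlap on the TMM scale. With library totals they did, at 2207 to 2735 CPM in females and 2457 to 3456 CPM in males. The TMM-scaled means were 2413 ± 148 CPM (SD, n = 6) and 2988 ± 361 CPM (SD, n = 5), and 2840 ± 161 CPM in males without replicate 5.

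The ATPase PSMC4 (chr18:49489069-49499930) was the base gene without overlap between the sexes. Male replicates 1 to 5 had 324, 357, 337, 332 and 385 CPM, and females had 194 to 277 CPM with a median of 253 CPM. The difference of 0.48 on the log2 scale (SE 0.13) did not pass the threshold (adjusted p = 0.117 in edgeR). Its annotated span overlaps that of the uncharacterised LOC104974868. Within library numbers 1 to 3, PSMC4 differed by 0.54, 0.56 and 0.37 on the log2 scale.

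In some other base genes the male excess depended more on Male replicate 5, while that of PSMC2 and PSMC6 was larger without it. The ATPases PSMC3 and PSMC1 had log2 fold changes of 0.54 and 0.50 (adjusted p = 0.189 and 0.242 in edgeR), and 0.39 and 0.32 without that library. PSMC3 had 323, 480.0, 325, 428 and 707 CPM in Male replicates 1 to 5 and 264 to 331 CPM in females. PSMC5 had a log2 fold change of 0.33 (adjusted p = 0.308 in edgeR), and 0.23 without Male replicate 5. PSMD2, a scaffold of the base, moved from 0.23 to -0.08 without that library, and PSMD4, a ubiquitin receptor, from 0.27 to 0.01.

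The 8 lid genes also all had a fold change above 0, with a median of 0.24 on the log2 scale, 0.20 without Male replicate 5 and 6 of 8 above 0 under library totals. PSMD8, a structural lid subunit, was the 1 with an unadjusted p under 0.05, with a log2 fold change of 0.53 (SE 0.17, adjusted p = 0.193 in edgeR) and 0.42 without Male replicate 5. EdgeR called 0 lid genes, DESeq2 with a term for library number called 0, and DESeq2 with sex alone called PSMD8. PSMD14, the deubiquitinase of the lid, had a log2 fold change of 0.29 (adjusted p = 0.448 in edgeR). PSMD3, another structural subunit, moved from 0.36 to 0.01 without Male replicate 5. The summed level of the lid was 1487 ± 158 CPM in females (SD, n = 6) and 1776 ± 236 CPM in males (SD, n = 5), a difference within overlapping ranges of 1295 to 1747 and 1508 to 2105 CPM.

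The activators and the regulator did not share a direction. PSME1 and PSME2, the interferon-inducible activator subunits, had log2 fold changes of 0.50 (SE 0.31) and 0.33 (SE 0.18), and adjusted p of 0.547 and 0.475 in edgeR. PSME1 spanned 48.7 to 132 CPM in males and 39.8 to 109 CPM in females, and its span overlaps that of EMC9. PSME4, a nuclear activator known from spermatogenesis and DNA repair, was at 129 ± 22.2 CPM in females (SD, n = 6) and 97.6 ± 20.4 CPM in males (SD, n = 5). Male replicates 1 to 5 had 109, 85.3, 128, 84.1 and 81.4 CPM of PSME4 and females 108 to 168 CPM, so that Male replicates 1 and 3 lay within the female range. Its log2 fold change was -0.40 (SE 0.17, adjusted p = 0.349 in edgeR). PSME3 and the regulator PSMF1 were at -0.02 and 0.19. EdgeR and DESeq2 called 0 of the 5 genes, and 1, PSME4, had an unadjusted p under 0.05. Their summed level was 448 ± 30.3 CPM in females and 464 ± 33.0 CPM in males (SD).

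Of the 7 assembly chaperones, 5 had a fold change above 0, with a median of 0.07 on the log2 scale that turned to -0.04 with library totals, -0.02 without Female replicate 2 and -0.02 without Male replicate 4. PSMD10, also known as gankyrin, helps to assemble the base and lies at chrX:56712973-56722462. It had 143, 198, 193, 193 and 178 CPM in Male replicates 1 to 5, and 226 to 349 CPM with a median of 276 CPM in females. Every female library lay above every male library. Its log2 fold change was -0.65 (SE 0.15), with an adjusted p of 0.0685 in edgeR's test, and it was also called by DESeq2. Leaving out 1 library at a time kept the call in 3 of 11 fits, those without Female replicate 3 or Male replicates 4 or 5, and lost it without any of the other 8. The log2 fold change then lay between -0.73 and -0.57 and the adjusted p between 0.0617 and 0.189. Of the 476 X-linked genes tested, 27.7% were called in favour of females, their median log2 fold change was -0.85, and 67.0% had a value below that of PSMD10. Among autosomal genes 0.707% were called in either direction. PSMD10 was the only X-linked gene of the 50, and none was Y-linked. The other 6 chaperones had log2 fold changes between -0.12 and 0.29.

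**Figure D3:**
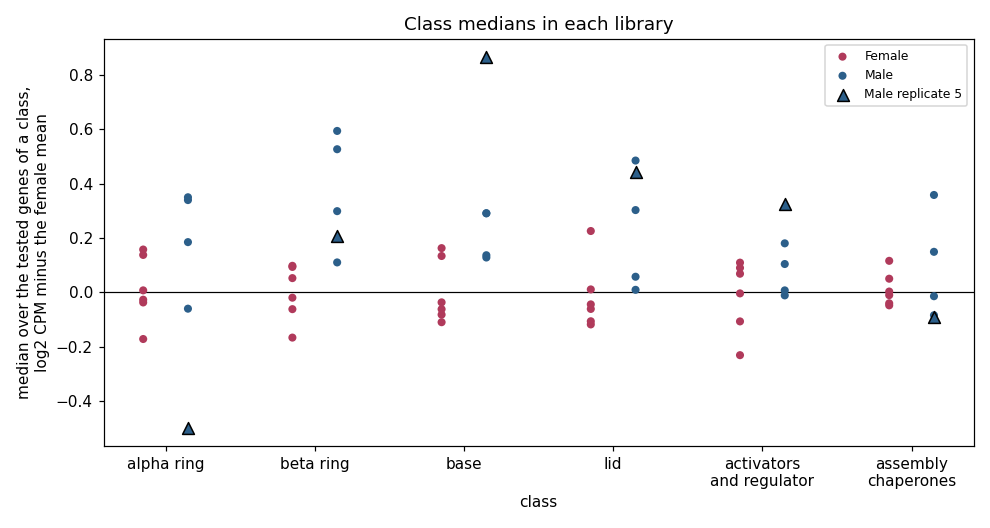
Median over the tested genes of each class of the difference in log2 CPM between a library and the mean of the female libraries, with females in red, males in blue and Male replicate 5 as a triangle. The triangle lies at -0.50 for the alpha ring and at 0.87 for the base, outside the range of the other 10 libraries in both classes.

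The classes were compared by their medians, with no test between them. On the log2 scale the medians were 0.33 for the beta ring, 0.27 for the base, 0.24 for the lid, 0.19 for the activators and regulator, 0.12 for the alpha ring and 0.07 for the chaperones, and the core as a whole was at 0.22. The 3 inducible subunits, with low counts, had a median of 0.50, and 0.09 without Male replicate 5. Without Male replicate 5 they were 0.42, 0.23, 0.20, 0.11, 0.20 and 0.13, and 0.23 for the core. The beta ring stayed above the other classes in both orders, apart from the inducible subunits, whereas the alpha ring moved from below the activators to above them.

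Within library numbers 1, 2 and 3, the median difference of the base was 0.22, 0.22 and 0.37, and that of the lid 0.22, 0.14 and 0.31. For the alpha ring it was 0.10, 0.12 and 0.03, for the activators and regulator 0.03, 0.12 and 0.40, and for the chaperones 0.02, 0.07 and 0.10. All of these medians were above 0, but single genes went both ways. Higher in males were 9, 8 and 6 of 9 base genes, and 8, 6 and 7 of 8 lid genes. For the alpha ring the counts were 5, 6 and 5 of 8, for the activators and regulator 3, 4 and 4 of 5. Among the chaperones they were 4, 4 and 5 of 7. Library number 3 includes Male replicate 5.

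In Male replicate 5 the proteasome genes were spread more widely than in the other libraries, and so were the tested genes at large. The spread ran between classes and also within the alpha ring and the base. Male replicate 5 was the highest of the 11 libraries in 18 of the 49 genes, against 24.9% of all tested genes, and the lowest in 13, against 26.8%. The genes in which it was highest included 7 of 9 base genes and 4 of 8 lid genes, and those in which it was lowest included PSMA1 to PSMA6. Relative to the female mean, its median was -0.50 on the log2 scale over PSMA1 to PSMA6, a subset picked for this pattern, and 0.87 over the base. PSMA7 of the same ring went the other way, the highest of 11 libraries at 0.56 above the female mean. The base was split as well, with PSMC2 and PSMC6 the lowest of 11 libraries and the other 7 genes the highest. Its SD over 47 genes was 0.71, against 0.31 to 0.54 in the other males and 0.24 to 0.26 in females. Over all tested genes its SD was 1.38, against 0.71 to 0.84 in the other males and 0.46 to 0.61 in females. Its sum of trophectoderm markers, mostly KRT8, was also the highest of the 11 libraries, and its part in these values was not tested.

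**Figure D4:**
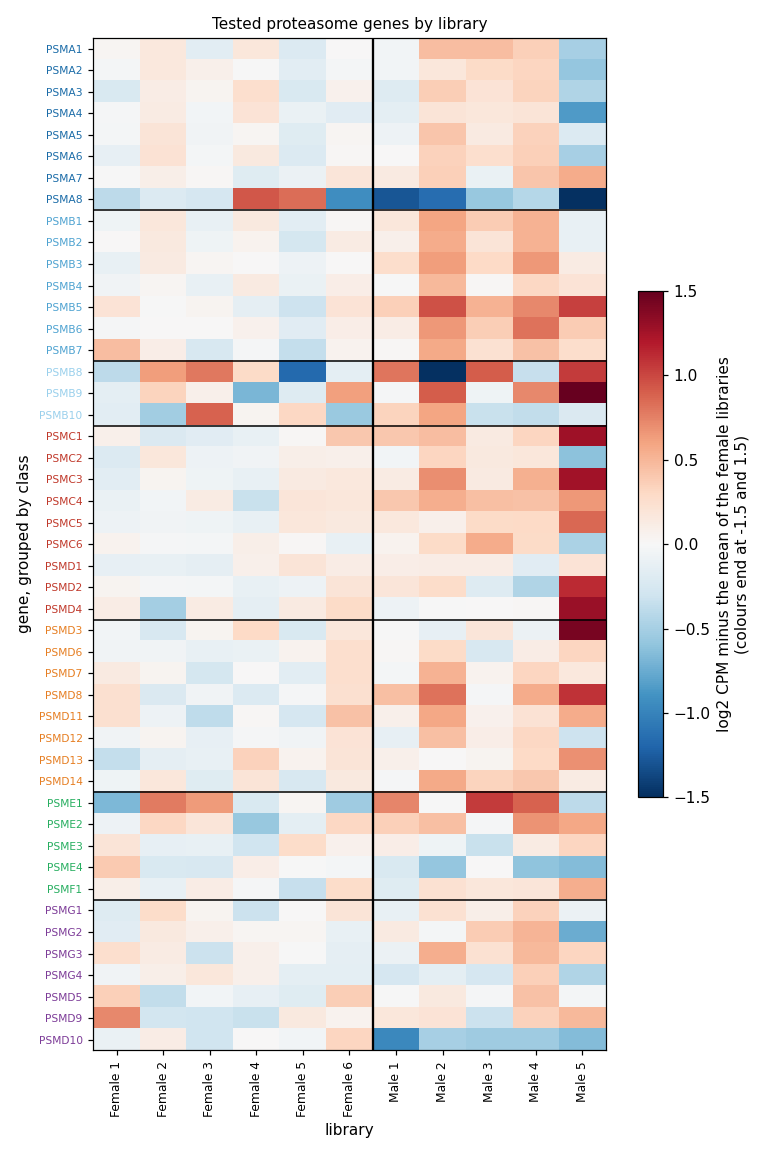
Log2 CPM of 47 tested proteasome genes in each library minus the mean of the female libraries, grouped by class, with red above and blue below that mean. The beta ring is red in Male replicates 2 to 4, and Male replicate 5 is blue across PSMA1 to PSMA6, red for PSMA7 and red across most of the base.

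Variation between pools of 1 sex was smaller for proteasome genes than for tested genes at large. The median coefficient of variation was 13.2% among females, against 27.2% over all tested genes, and 20.9% among males, against 36.1%. Without Male replicate 5 the male values were 16.2% and 26.7%. These medians are a description, since the coefficient also depends on the number of counts of a gene.

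Outside the family, 28 genes of ubiquitin supply, delivery and proteasome control were listed, and all were tested. Of these, 16 had a fold change above 0 and 12 below, with a median of 0.06 on the log2 scale, against 50.5% of all tested genes above 0. EdgeR called 0 higher in males, against 0.414% of all tested genes, and 2 higher in females, against 1.5%. Both are the X-linked genes of this list, and 27.7% of all X-linked tested genes were called higher in females. UBA1, the main ubiquitin-activating enzyme, was at 104 ± 7.44 CPM in females (SD, n = 6) and 61.6 ± 8.50 CPM in males (SD, n = 5), a log2 fold change of -0.77 (SE 0.14, adjusted p = 0.0230 in edgeR). UBQLN2, which carries ubiquitinated proteins to the proteasome, was at 34.8 ± 9.17 CPM in females and 13.6 ± 4.54 CPM in males, a log2 fold change of -1.34 (SE 0.28, adjusted p = 0.050 in edgeR).

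Of the entries that are no subunits, PSMC3IP, which acts in meiotic recombination, had a log2 fold change of 0.53 (SE 0.20, adjusted p = 0.277 in edgeR), and it was called by DESeq2 with sex alone. PSME3IP1, a partner of PSME3, was at 0.12.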

How the data were processed

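The counts deposited by the authors are whole, unnormalized reads per gene from featureCounts, after trimming (fastp 0.20.0) and alignment to ARS-UCD2.0 (STAR 2.7.10b). Settings for strand and for reads shared by near-identical copies or overlapping genes were not given in the sources used here, so 16 entries whose annotated span overlaps another gene are uncertain to that extent. A further Iso-seq sample of 4-cell embryos was not analysed here.

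The filter was filterByExpr of edgeR 4.0.16 (R 4.3.3) on both sexes, which kept 12802 genes, followed by TMM factors. Sex was tested by quasi-likelihood, and the block was the first digit of the library name, used in place of the collection week of the study's methods. P-values were Benjamini-Hochberg adjusted over all tested genes. Log2 CPM used a prior count of 2. Intervals of a count of 0 use a limit of 3 counts and cover counting error only. DESeq2 1.42.0, other scalings, filters and blocks, and fits without each library were alternatives.

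Coordinates are gene spans of the RefSeq annotation of ARS-UCD2.0. Sequences and lengths were not used here, so levels are not compared between genes and promoters were not searched. Genes named with values are those called, those without overlap between the sexes, sex-linked members, catalytic subunits with their inducible counterparts and members failing the filter, while the 20 others named with values were picked once their values were known. The members and lists were chosen with earlier results of these data known.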

Additional observations from a re-analysis of the deposited data

Results flagged for a closer look

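In 94 groups, the 6 females or the 5 males for each of 47 proteasome genes, 5 had a library whose gap to the nearest other exceeded Dixon's critical value, and chance gives about 1 in 20 groups. The same library, Male replicate 5, accounted for 4 of the 5. Its PSMC1 level was 558 CPM against 252 to 317 CPM in the other males, and its PSMC5 level was 469 CPM against 271 to 317 CPM. For PSMD4 it had 169 CPM against 65.0 to 69.9 CPM, and for PSMD3 44.3 CPM against 15.1 to 18.7 CPM. The remaining group was PSMD9, an assembly chaperone, at 73.6 CPM in Female replicate 1 against 35.3 to 49.5 CPM in the other females.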

How the results depend on the processing

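The number of proteasome genes called was 2, PSMB5 and PSMD10, in edgeR's quasi-likelihood test, and 2 with an adjusted p under 0.1 alone. With sex alone and no replicate block, 2 were called and 3 had an adjusted p under 0.1. With the replicate number of the titles as the block both counts were 0, although 12 had an unadjusted p under 0.05. The labels do not say whether either number pairs the samples. Correlations of deviations were 0.01, 0.37 and 0.20 for the library number, and -0.11 to 0.35 for the title's number. DESeq2 with sex alone gave 5 called, against 637 of the 12802 tested genes, and 7 by adjusted p. Both of these counts include PSMC3IP, which is no subunit. A threshold of 0.05 gave 0 and 0, and fits without 1 library gave 0 to 2 for both. With library totals, 1 gene kept every male above every female, and the median over the family moved to 0.0866, the alternative added after seeing the data. Over all alternatives that median ran from 0.0866 to 0.2618. The sign of PSMB10 changed to -0.0465 with no replicate block, -0.1315 with the title's number, -0.0510 in DESeq2 with sex alone, -0.0155 with autosomal TMM factors and -0.0985 with library totals, and ran from -0.1813 to 0.3018 in fits without 1 library. PSMD9 changed to -0.0278 with library totals and ran from -0.0267 to 0.2674 in fits without 1 library, and PSMD2 from -0.0789, without Male replicate 5, to 0.3675. The median of the chaperones, 0.0732, ran from -0.0351 to 0.1313. PSME3, at -0.02, changed to 0.0326 with no replicate block, 0.0431 with the title's number and 0.0345 in DESeq2 with sex alone, and ran from -0.0769 to 0.0253 in fits without 1 library. The cause was not tested. Of 560 comparisons of 28 named genes, 520 kept sign and side of the thresholds. The division of levels by length was not run. With 5 and 6 pools, gene-level standard errors near 0.17 limit what can be called, and the lowest genes, such as PSMB8 and PSMB10, had errors of 0.78 and 0.43.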
